A study of Homo sapiens with 4 samples.

Results

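VEGFA, which encodes the main growth factor for blood vessels, was examined here with 9 genes known to be induced by low oxygen: ANKRD37, NDRG1, ADM, BNIP3, BNIP3L, PFKFB3, KDM3A, STC2 and CA9. These 10 genes were found by gene symbol in the platform annotation of the array. They were selected on earlier results from the same arrays, in which VEGFA was lower with YTHDF3 knockdown. The differences between the groups are therefore given for these genes as descriptions, without a test. Of the 10 genes, 8 had a named probe set, 1 each, and all 8 exceeded the filter on low values, out of 12755 genes tested and 14884 genes with a named probe set. PFKFB3 and CA9 had no named probe set and were not analysed here.

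The 4 arrays came from MDA-MB-231Br cells, named MDA-MB-231 in the sample titles, a derivative of a triple-negative breast cancer line. There were 2 arrays of cells that received lentivirus with a hairpin against YTHDF3 (shYTHDF3, the knockdown) and 2 of cells that received a control hairpin (shControl). All cells were selected with puromycin, and YTHDF3 is a cytoplasmic reader of N6-methyladenosine on RNA. The labels do not give the hairpin sequence, the number of hairpins or whether cells were cloned, nor whether the 2 samples of a group were separate cultures, so the spread between them may be technical. YTHDF3 had no named probe set in the annotation used, so its level was not analysed here. Nothing that was analysed checks which arrays are knockdowns. Of 6 tested markers of mesenchymal-like breast cancer lines, VIM and AXL averaged 9.89 and 11.1 in knockdown arrays, against 9.85 and 11.3 in control arrays, while S100A4 averaged 3.38 in knockdown and 3.07 in control arrays. The hormone receptor genes ESR1 and PGR averaged 2.91 and 2.68 in knockdown and 2.84 and 2.66 in control arrays, near the filter level of 2.54. Other luminal and epithelial markers read higher. KRT18, by the brighter of its 2 named probe sets, averaged 8.96 in knockdown and 8.45 in control arrays. Whether that probe set reads KRT18 alone was not tested. EPCAM averaged 6.70 in both, KRT19 6.37 in knockdown and 6.77 in control arrays, and FOXA1 5.17 in knockdown and 4.90 in control arrays. CD68, listed as a leukocyte marker, averaged 10.5 in knockdown and 10.7 in control arrays. None of 6 line markers, 9 luminal and epithelial markers or 4 endothelial, stromal and leukocyte markers passed limma's threshold, and 0 of PTPRC, CDH5 and COL1A1 had a named probe set.

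Cells sense oxygen through the hypoxia-inducible factors (HIFs). With oxygen, prolyl hydroxylases of the EGLN family mark the HIF alpha subunit for binding by VHL and for degradation. When oxygen is low, the alpha subunit is stable, pairs with ARNT and binds short DNA elements near its target genes. VEGFA is a classical HIF target, and its transcription is also known to respond to ATF4, the transcription factor of amino acid shortage and endoplasmic reticulum (ER) stress. The comparison asked whether VEGFA was lower together with HIF targets or apart from them, beside genes that answer to ATF4. The sample titles name no oxygen level or low-oxygen treatment, and HIF activity in these cells was not measured. Levels of HIF targets in control arrays varied widely, with EGLN3 averaging 2.49 and BNIP3L 10.3. A target near the filter level of 2.54 has little room to be lower.

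The promoters of the members are shown first because HIF acts through a core of ACGTG or GCGTG. RefSeq sequences (GRCh38.p14) of the 250 bases before the annotated start were held in the table used here for 7 members: ANKRD37, STC2, BNIP3, KDM3A, ADM, PFKFB3 and CA9. VEGFA, NDRG1 and BNIP3L had no entry. The stretches below belong to the members with the smallest p in the comparison among those with an entry, run 5′ to 3′ on the gene's strand, and have each match to the core, on either strand, in capitals. They lie at chr4:185396659-185396722 on the plus strand for ANKRD37, chr5:173328612-173328664 on the minus strand for STC2, chr10:131982003-131982086 on the minus strand for BNIP3 and chr2:86441325-86441369 on the plus strand for KDM3A.
ANKRD37: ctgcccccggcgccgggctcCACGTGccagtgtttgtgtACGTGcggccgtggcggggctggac
STC2: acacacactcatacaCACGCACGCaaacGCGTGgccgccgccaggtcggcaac
BNIP3: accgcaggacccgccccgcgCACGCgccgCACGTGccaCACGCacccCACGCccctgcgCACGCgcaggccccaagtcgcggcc
KDM3A: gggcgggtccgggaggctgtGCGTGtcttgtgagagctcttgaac
ANKRD37 had 3 matches and BNIP3 had 6. In each of them a pair of matches overlaps on opposite strands, in CACGTG, which is also the core of an E-box. STC2 had 3 matches, of which 2 share a base, and KDM3A had 1.

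All 7 members with an entry held at least 1 match to the core, but so did 60.4% of the 9605 tested genes with an entry and 47.4% of all 27305 genes in the table. Of the 27 tested genes of a wider list of hypoxia-inducible genes that had an entry, 23 (85.2%) held the core. Of the 28 such genes of a list of ATF4 and CHOP response genes, 19 (67.9%) held it. A composite element bound by ATF4 with C/EBP factors, searched as TGATGNAA on either strand, was in 0 of the 7 members' windows. It was in 1 of 27 hypoxia-inducible genes (3.70%), 7 of 28 ATF4 and CHOP response genes (25.0%) and 2.59% of tested genes. These are matches of letters within 250 bases and say nothing of binding, nor of elements elsewhere in a gene. A gene with several annotated starts counted as holding a match if any of its windows did.

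VEGFA was the member with the largest difference. Its log2 expression was 5.73 and 5.76 in the knockdown arrays, against 6.76 and 6.85 in the control arrays. The groups did not overlap, and the 2 arrays of each group lay far closer to each other than to the other group. The means were 5.75 ± 0.02 in knockdown and 6.80 ± 0.06 in control arrays (SD, n = 2 each), a log2 difference of -1.06 (standard error, SE, 0.13, from the limma fit over all genes), or 2.08-fold lower. In bulk RNA of this kind, fewer cells expressing a gene and less RNA per cell cannot be told apart. Only 0.541% of tested genes had a more negative difference. The probe set reports the transcript and not the secreted protein, and splice forms of VEGFA were not separated.

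ANKRD37, an ankyrin-repeat protein and direct HIF-1 target, came next. It read 4.39 and 4.52 in the knockdown arrays, against 5.15 and 5.38 in the control arrays, again without overlap. The log2 difference was -0.81 (SE 0.14), or 1.75-fold lower, with 1.15% of tested genes more negative. Its control arrays differed from each other by 0.23, more than those of any other measured member.

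NDRG1, a stress- and hypoxia-induced gene studied as a suppressor of metastasis, had values of 6.15 and 6.30 in knockdown arrays, against 6.61 and 6.77 in control arrays. The groups did not overlap, and the difference was -0.46 on the log2 scale (SE 0.14), or 1.38-fold lower. ADM encodes adrenomedullin, a peptide that dilates vessels. It read 6.09 and 6.12 in knockdown arrays, against 6.20 and 6.30 in control arrays, a log2 difference of -0.14 (SE 0.13). The gap between its nearest knockdown and control arrays was small, 0.08 on the log2 scale, so ADM was close to level between the groups.

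BNIP3 and BNIP3L are related receptors on mitochondria that direct their removal by autophagy. BNIP3 read 9.81 and 9.96 in the knockdown arrays, against 10.15 and 10.03 in the control arrays, a log2 difference of -0.21 (SE 0.13). BNIP3L read 10.22 and 10.17 in the knockdown arrays, against 10.31 and 10.38 in the control arrays, a log2 difference of -0.15 (SE 0.13). Both were therefore lower by less than 2 SE, although the arrays of the groups did not overlap. STC2, a secreted glycoprotein that is known to respond to ATF4 as well as to HIF, read 4.63 and 4.42 in knockdown arrays, against 4.79 and 4.71 in control arrays. Its difference of -0.23 on the log2 scale (SE 0.14) was about as large as the gap of 0.20 between its knockdown arrays.

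KDM3A was the 1 measured member that was higher. This HIF-induced enzyme removes methyl groups from lysine 9 of histone H3. Its log2 expression was 6.43 and 6.34 in the knockdown arrays, against 6.30 and 6.16 in the control arrays, a difference of 0.15 (SE 0.13). Its nearest knockdown and control arrays differed by 0.04 on the log2 scale.

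**Figure D1:**
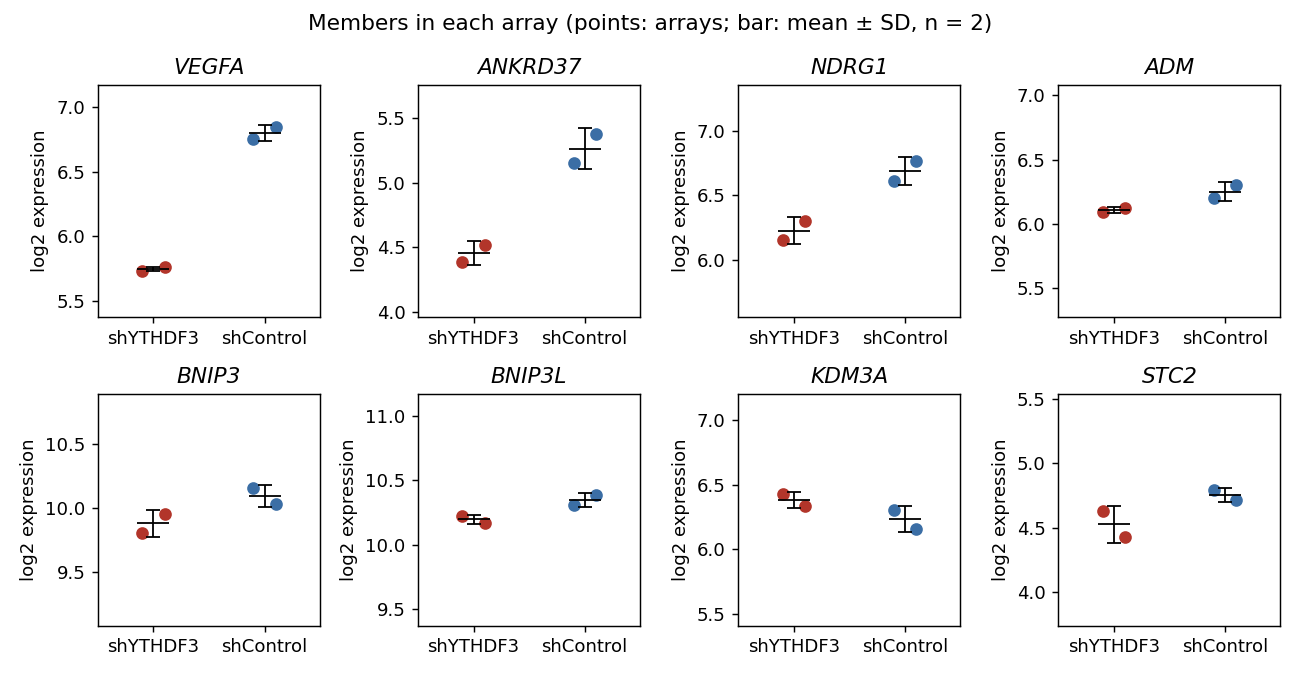
Log2 expression of the 8 measured members in each array (points), with the mean and SD of each group (n = 2), knockdown on the left of each panel and control on the right; every vertical axis spans the same range of log2 units. The group means of VEGFA and ANKRD37 are separated by -1.06 and -0.81. For ADM, BNIP3, BNIP3L, KDM3A and STC2 the knockdown mean lies within 0.23 of the control mean.

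Of the 8 measured members, limma placed 1, VEGFA, past an adjusted p of 0.05 as lower and 0 as higher, where 0.666% of all 12755 tested genes were past it as lower and 0.0862% as higher. At an unadjusted p under 0.05, 3 members were lower (VEGFA, ANKRD37 and NDRG1) and 0 higher, beside 8.48% of all tested genes as lower and 6.24% as higher. Because the members were selected on this comparison, nothing is read from these counts. The arrays of the groups did not overlap for 7 members that were lower, beside 22.8% of tested genes that did not overlap and were lower, and for 1 member that was higher, beside 22.6%. VEGFA was past the threshold in the main fit of all 4 arrays. With the replicate number as a block it was not (adjusted p = 0.12 from limma). Its call was also lost when any 1 of the 4 arrays was left out, where calls over all tested genes were fewer or none. The log2 difference of VEGFA then ran from -1.10 to -1.01.

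The 7 measured members other than VEGFA had a median log2 difference of -0.21, beside 0.004 over all tested genes. VEGFA lay 0.85 below that median. With each knockdown array set against each control array, in 4 pairs, VEGFA differed by -1.11 to -0.997 and the median of the other 7 by -0.21 to -0.16. ANKRD37 differed by -0.99 to -0.63 over those pairs and NDRG1 by -0.61 to -0.31. The remaining lower members, ADM, BNIP3, BNIP3L and STC2, had a negative difference in 4 of 4 pairs, and KDM3A in 0 of 4. These pairs share arrays and are not independent. The distance between VEGFA and the other members was not tested.

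**Figure D2:**
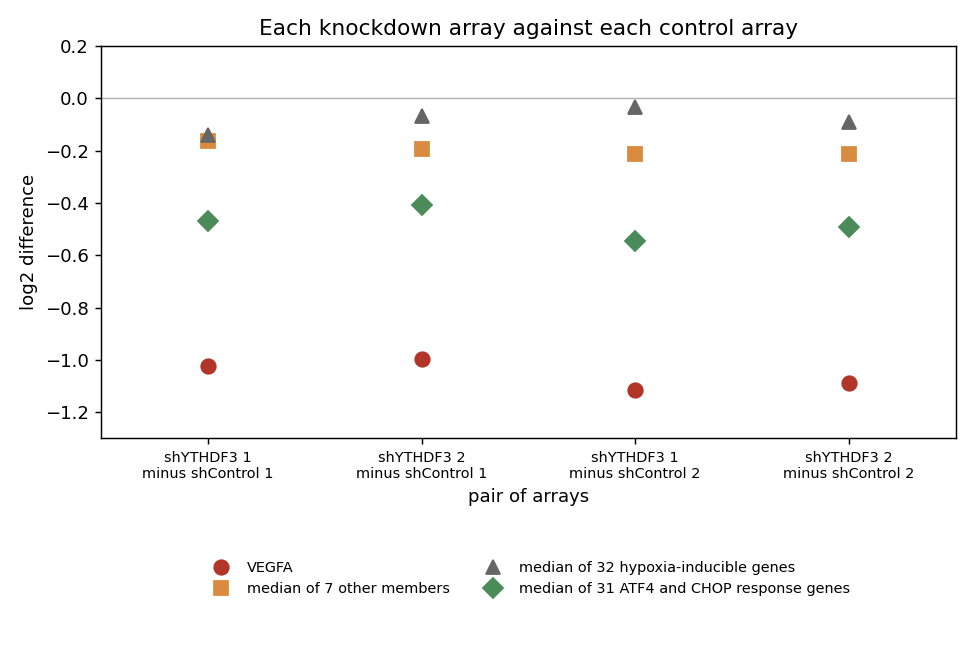
Log2 differences in each pair of a knockdown array minus a control array (horizontal axis), for VEGFA and for the medians of the 7 other measured members, of 32 further hypoxia-inducible genes and of 31 ATF4 and CHOP response genes. In every pair VEGFA lies near -1, the ATF4 and CHOP median between -0.55 and -0.41, the members' median between -0.21 and -0.16 and the hypoxia median between -0.14 and -0.03.

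The wider response to hypoxia was read from a list of 61 further hypoxia-inducible genes, written from textbook knowledge. Of these, 27 had no named probe set and 2 were below the filter, which left 32. Among them 1 fell and 0 rose at limma's threshold, and 31 did not pass, beside the 0.666% and 0.0862% of all tested genes. The 1 that fell was DDIT4, an inhibitor of mTORC1 induced by HIF and by ATF4. It read 6.40 and 6.59 in knockdown arrays, against 8.54 and 8.73 in control arrays, a log2 difference of -2.14 (SE 0.14, adjusted p = 0.0014 from limma), and was 4.41-fold lower. The list's median was -0.12, with 19 genes below 0 and 13 above. The call of DDIT4 was lost when either control array was left out, as were the calls over all tested genes.

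The genes of smallest p among those that did not pass went both ways. VLDLR, a lipoprotein receptor that also belongs to the ATF4 list, had a log2 difference of -0.81 (SE 0.15). LOX, a collagen-crosslinking oxidase, had -0.74 (SE 0.14), and WSB1, a subunit of ubiquitin ligases, had -0.47 (SE 0.13). PGAM1, a glycolytic enzyme, had 0.91 (SE 0.21), from levels of 7.03 and 6.87 in knockdown arrays, against 5.72 and 6.37 in control arrays. Their adjusted p-values from limma ran from 0.067 for VLDLR to 0.16 for WSB1. The control arrays of PGAM1 differed from each other by 0.65, and whether its 1 named probe set reads PGAM1 alone was not tested.

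Without DDIT4 and VLDLR, the 2 genes that the hypoxia list shares with the ATF4 list, limma called 0 of 30 hypoxia-inducible genes in either direction, and the unadjusted p was under 0.05 for 5 lower and 3 higher genes, beside 8.48% and 6.24% of all tested genes. Their median was -0.07. The 7 glycolytic enzymes of the list, grouped after their values were seen, had differences of -0.17 to 0.91 with a median of 0.08. Of those 7, 4 were above 0 and 0 passed limma's threshold. The unadjusted p was under 0.05 for 2, both higher, beside 6.24% of all tested genes. TPI1 averaged 3.78 in knockdown and 3.90 in control arrays, GAPDH 5.84 in both, and LDHA 5.89 and 5.81. HK1, HK2 and PGK1 averaged between 7.72 and 8.35 in either group. Whether each probe set reports the main transcript of its gene was not tested, so the median need not hold for those transcripts.

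The machinery of oxygen sensing showed no call among the 5 genes tested of 14 listed, and 0 had an unadjusted p under 0.05 from limma. EPAS1, the HIF-2 alpha subunit, read 5.14 and 4.96 in knockdown arrays, against 5.23 and 5.43 in control arrays, a log2 difference of -0.28 (95% interval -0.61 to 0.06). ARNT, the shared HIF partner, differed by -0.08 (95% interval -0.39 to 0.23) and its relative ARNT2 by 0.19 (95% interval -0.34 to 0.72). EGLN1, the main oxygen-sensing hydroxylase, differed by 0.15 (95% interval -0.18 to 0.47), and CUL2, the scaffold of the VHL ligase, by 0.02 (95% interval -0.29 to 0.32). EGLN3, itself a HIF target, was below the filter in level, with means of 2.50 in knockdown and 2.49 in control arrays. HIF1A and VHL had no named probe set and were not analysed here, and HIF is set largely by the stability of its protein, which arrays do not measure.

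Among VEGF ligands and receptors, 8 of 10 listed genes were tested, and VEGFA was the 1 past limma's threshold. The ligands VEGFB and VEGFC, which act on vessels and lymphatics, had log2 differences of -0.29 (SE 0.18) and -0.19 (SE 0.13). PGF, placental growth factor, read 5.89 and 5.62 in knockdown arrays, against 5.40 and 5.38 in control arrays, a log2 difference of 0.36 (SE 0.14, adjusted p = 0.31 from limma). PGF was therefore on the opposite side of 0 from VEGFA, without passing the threshold. The co-receptors NRP1 and NRP2 differed by -0.24 (SE 0.13) and 0.26 (SE 0.14). The receptor tyrosine kinases KDR and FLT4 differed by -0.30 (SE 0.20) and -0.05 (SE 0.17), and FLT1 was below the filter.

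**Figure D3:**
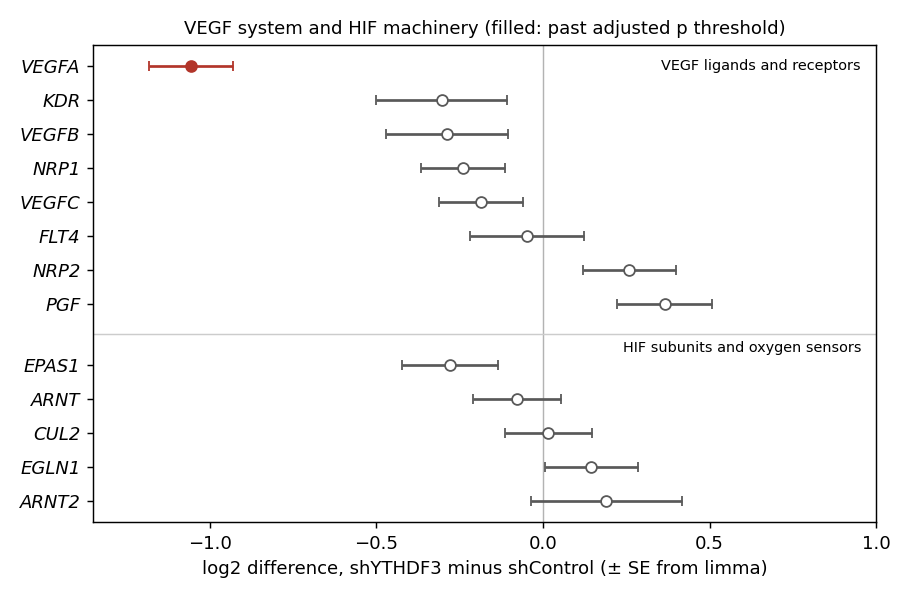
Log2 differences (shYTHDF3 minus shControl, horizontal axis) with the SE from limma, for 8 tested VEGF ligands and receptors above the line and 5 tested HIF subunits and oxygen sensors below it. VEGFA, filled, stands at -1.06, while the other 12 genes lie between -0.30 and 0.36.

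Of 19 tested genes for other angiogenic factors, limma called 0 in either direction, and at an unadjusted p under 0.05 it gave 5 lower and 0 higher, beside 8.48% and 6.24% of all tested genes. The list's median was -0.23 and 14 of 19 genes were below 0. JAG1, a Notch ligand, had a log2 difference of -0.53 (SE 0.15), LIF, a cytokine, -0.42 (SE 0.15), and HBEGF, an EGF receptor ligand, -0.35 (SE 0.13). THBS2, an inhibitor of angiogenesis, had -0.32 (SE 0.13). Limma's adjusted p-values for these 4 ran from 0.17 to 0.32.

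Genes that answer to ATF4 and its partner CHOP stood lower than the hypoxia-inducible genes in median. Leaving out VEGFA and STC2, 31 of 49 listed genes were tested, of which 10 fell, 0 rose and 21 did not pass, beside 0.666% of all tested genes as lower. The median log2 difference was -0.42, with 26 of 31 below 0. Earlier results of these arrays had already shown a list of this kind to be lower, so the count is not independent evidence of that direction. Leaving out either control array removed the calls over all tested genes, this list included, and leaving out either knockdown array reduced them. Such fits have 1 array in a group and say little of this list alone. The difference between this list and the hypoxia list was not tested.

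The falls ran from -3.07 for DDIT3, which encodes CHOP, to -0.78 for SARS1, with adjusted p-values from limma of 0.00046 to 0.0499. The stress-induced SESN2 and the pseudokinase TRIB3 fell by 2.56 and 1.75 on the log2 scale. ASNS, asparagine synthetase, fell by 1.32, and CTH, which makes cysteine, fell by 1.74. GDF15, a stress cytokine, fell by 1.03, and DDIT4 is given above. The tRNA synthetase genes WARS1, GARS1 and SARS1 fell by 0.97, 0.83 and 0.78 on the log2 scale, and WARS1 had a second, dimmer probe set that differed by -0.13. PCK2, VLDLR, ATF3 and JDP2 did not pass, with log2 differences of -0.78 (SE 0.14), -0.81 (SE 0.15), -1.33 (SE 0.27) and -0.65 (SE 0.14). ATF3 read 3.67 and 2.74 in knockdown arrays, the second near the filter level of 2.54, against 4.51 and 4.56 in control arrays. Of the 5 genes above 0, ATF5 had the largest difference, 0.60 (SE 0.19, adjusted p = 0.21 from limma). The ATF4 transcript read 8.75 and 8.83 in knockdown arrays, against 8.73 and 8.83 in control arrays, a log2 difference of 0.01 (SE 0.13).

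**Figure D4:**
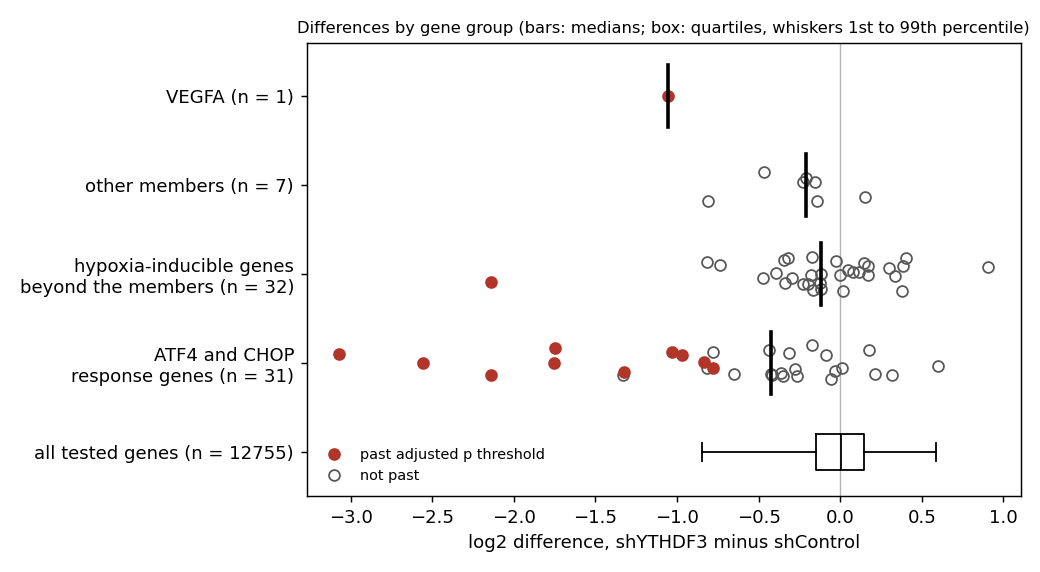
Log2 differences (shYTHDF3 minus shControl, horizontal axis) of single genes (points; filled where past limma's adjusted p of 0.05) for VEGFA, the 7 other measured members, 32 further hypoxia-inducible genes and 31 ATF4 and CHOP response genes, with medians as bars, above a box of all 12755 tested genes. The filled points are VEGFA, DDIT4 in both the hypoxia and ATF4 rows, and the 9 other genes that fell in the ATF4 row.

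The profile of VEGFA over the 4 arrays was also set against every other tested gene, by the Euclidean distance between log2 values centred on each gene's own mean. The 5 nearest genes were SLC35D4, BAG3, GMDS-DT, RPL26L1-AS1 and NBEAL1, at distances of 0.09 to 0.13 and with log2 differences of -1.13 to -0.95. BAG3 encodes a co-chaperone of HSP70. It read 6.70 and 6.78 in knockdown arrays, against 7.86 and 7.89 in control arrays. Of the other members, ANKRD37 ranked 36 in nearness and NDRG1 ranked 438, while the others ranked between 1991 and 9374 of 12754 genes. Among the 100 nearest genes were 1 of the 7 other members, 2 of the 32 hypoxia-inducible genes (6.25%) and 7 of the 31 ATF4 and CHOP response genes (22.6%), VLDLR counting in both. The 100 genes make up 0.784% of all tested genes other than VEGFA, a smaller share than in either list. With 4 arrays this measure follows mainly the difference between the groups, and it is given as a description. VEGFA and a list like the ATF4 list were already known to be lower in these arrays. The share of that list among the nearest genes was therefore largely set in advance.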

How the data were processed

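Transcripts were measured on 4 Affymetrix arrays (2 of each group), grouped by their sample titles. The deposited table holds log2 values, 1 column per array, for 53617 probe sets. Per the submitters' processing notes the authors used RMA, a method that subtracts background, equalises the arrays and condenses probes into probe sets, so weak signals are compressed and array-wide shifts removed. Settings and genome build: not given in the sources used here. Of the probe sets, 16098 had 1 gene symbol and 37519 were unnamed here.

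For a gene with several probe sets the one of highest mean was kept. The filter required a mean at or above percentile 30 of the whole table, a log2 value of 2.54. The test was limma 3.58.1 under R 4.3.3 (lmFit, eBayes, 2-sided, no covariates) and Benjamini-Hochberg adjustment over 12755 genes at a threshold of 0.05. There were 2 residual and 5.30 prior degrees of freedom. A permutation of 2 against 2 arrays cannot give a p below 0.333, and precision is limited by how few arrays there are. The fit was tested on simulated data.

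The members and gene lists were chosen with earlier results of these data known. Genes named in the text were the members and every gene of a list past the threshold, with up to 4 of smallest p among the rest. The tested VEGF and HIF genes and the 5 genes nearest to VEGFA were also named. Marker genes, glycolytic enzymes, EGLN3, HIF1A, VHL, FLT1, ATF4 and ATF5 are named to account for a list. Promoter sequences came from RefSeq (GRCh38.p14), and no coordinates are given for probe sets. Other settings of the filter, probe set choice, normalization and variance model were tried, as were a replicate block and fits without each array.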

Additional observations from a re-analysis of the deposited data

How the results depend on the processing

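VEGFA stayed lower under all 12 alternatives (log2 difference -1.10 to -1.01), as did ANKRD37, NDRG1, ADM, BNIP3, BNIP3L and STC2, and KDM3A stayed higher. With the filter at the median of all probe sets the members past the threshold were 2, VEGFA and ANKRD37, the hypoxia-inducible genes that fell were 3 (DDIT4, LOX and VLDLR), and the calls over all genes were 141 lower and 26 higher. With limma's variance allowed to follow intensity they were again 2 members, VEGFA and ANKRD37, with 4 hypoxia-inducible genes lower (DDIT4, LOX, VLDLR and WSB1) and 1 higher (PGAM1), and 272 lower and 103 higher over all genes. Without a filter 5 genes were higher over all genes. Fewer or more genes tested change the adjustment, and the variance model was also refitted to the genes kept. Why the counts changed was not tested, either for the filters or for the trend.

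Replicate numbers were not tied to a shared day or batch in the labels, and the deviations of same-numbered arrays correlated at 0.04. With the replicate number as a block, which leaves fewer degrees of freedom, 0 members passed, 4 ATF4 and CHOP response genes were lower, and the calls over all genes were 11 lower and 0 higher.

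Leaving out 1 array at a time gave between 0 and 35 lower and between 0 and 2 higher genes over all genes. The members past the threshold were 0 in all 4 such fits, the hypoxia-inducible genes that fell 0 to 1, and the ATF4 and CHOP response genes that fell 0 to 6. The median of the other members ran from -0.27 to -0.16, and the distance of VEGFA from it from -0.91 to -0.75. Where an array was left out, the lone array of its group is assumed to vary like the other group.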
